A study of Mus musculus with 20 samples.

Results

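Padi4, Nr0b2, Chdh, Ces2g, Psma8 and Gdf3 are 6 of the 46078 genes in the table, and they were chosen by their measured TPM, as genes with some of the largest falls in Idh2R172K cells against wild type. Their mean RNA level in Idh2R172K cells was 2.07 to 7.18% of the wild-type mean. The cells were mouse bone marrow LSK cells, which lack lineage markers, carry cKit and Sca1, and include the blood stem cells and multipotent progenitors. There were 5 groups with 4 libraries each, every library came from 2 pooled mice, and the C57Bl/6J mice were 3 to 4 months old. Libraries held 35.2 to 45.0 M assigned reads (M is 1000000), as rebuilt from the values.

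The mutant groups were Idh2R172K (Idh2LSL-R172K/+;Vav-Cre), Idh2R140Q (Idh2LSL-R140Q/+;Vav-Cre), Idh1R132H (Idh1LSL-R132H/+;Vav-Cre) and Tet2-/-, and the controls were WT (+/+;Vav-Cre). The 3 Idh groups were heterozygous for a conditional allele and, like WT, carried Vav-Cre, a recombinase driven by the Vav promoter in blood-forming cells. The Tet2-/- label names no Cre, and which part of Tet2 was removed is not given in the sources used here. Values are TPM (transcripts per 1000000, corrected for gene length), and differences are on the log2(TPM + 1) scale, which understates the change of low genes. The p-values measure the spread between pools of 2 mice.

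Mutant IDH1, in the cytosol, and mutant IDH2, in mitochondria, are known for turning 2-oxoglutarate into 2-hydroxyglutarate. That metabolite inhibits enzymes that need 2-oxoglutarate, among them TET2, which oxidises methylated cytosine in DNA. The 6 genes belong to no common pathway. They encode a protein-modifying enzyme (Padi4), a nuclear receptor without a DNA-binding domain (Nr0b2), enzymes of choline and of ester metabolism (Chdh and Ces2g), a proteasome subunit known from testis (Psma8) and a secreted growth factor (Gdf3).

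The genes were read from the difference between Idh2R172K and WT, so their values in that comparison, and in every other comparison that uses the Idh2R172K pools, are given as a description with no test. Of the 14176 genes that averaged 1 TPM or more, 15.4% were called between Idh2R172K and WT, 8.03% higher and 7.33% lower (limma, Benjamini-Hochberg adjusted p under 0.05). All 6 members passed that filter on low values. Ranked by log2 difference among the 865 named genes that were called lower, not sex-linked and without overlap between the pools of the 2 groups, the members stood at positions 2, 4, 7, 8, 9 and 10. The other genes among the first 10 were the immunoglobulin segment Igkv6-32 (0.65 TPM in Idh2R172K against 105 TPM in WT), the carbonic anhydrase Car1 (25.1 against 499 TPM), the chemokine Ccl3 (2.22 against 58.7 TPM) and the gluconeogenic enzyme Fbp1 (2.15 against 45.3 TPM). Gdf3, the member with the smallest fall, differed by -3.44, and Ly9, next in that ranking and not a member, by -3.43.

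The promoters that could be matched in the RefSeq table (GRCm38.p6) are shown with their CG dinucleotides, the sites on which TET2 acts, so that the members can be compared. Each run ends at the base before the annotated start, written 5′ to 3′ on the gene's strand, and capitals mark CG. For Chdh, only the bases that separate its start from that of Il17rb, a gene on the opposite strand, are shown.
Padi4: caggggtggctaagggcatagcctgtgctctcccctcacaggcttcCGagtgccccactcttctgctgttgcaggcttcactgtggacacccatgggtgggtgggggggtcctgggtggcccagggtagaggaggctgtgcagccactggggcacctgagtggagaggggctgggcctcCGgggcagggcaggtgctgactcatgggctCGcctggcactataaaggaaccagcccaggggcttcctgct
Nr0b2: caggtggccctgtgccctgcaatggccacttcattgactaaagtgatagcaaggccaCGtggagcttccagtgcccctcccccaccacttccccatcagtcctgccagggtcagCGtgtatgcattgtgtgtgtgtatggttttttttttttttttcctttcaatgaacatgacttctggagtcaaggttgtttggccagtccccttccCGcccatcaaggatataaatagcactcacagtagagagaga
Ces2g: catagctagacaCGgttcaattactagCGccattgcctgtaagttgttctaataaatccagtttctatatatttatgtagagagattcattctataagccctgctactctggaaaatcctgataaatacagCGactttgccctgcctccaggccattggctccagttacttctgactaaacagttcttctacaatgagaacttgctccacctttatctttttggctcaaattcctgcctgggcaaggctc
Chdh: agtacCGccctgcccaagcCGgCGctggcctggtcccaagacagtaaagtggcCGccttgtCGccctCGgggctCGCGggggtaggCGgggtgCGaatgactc

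These runs lie at chr4:140774204-140774453 on the minus strand (Padi4), chr4:133553126-133553375 (Nr0b2), chr8:104961468-104961717 (Ces2g) and chr14:30008897-30008999 (Chdh), the last 3 on the plus strand. Psma8 and Gdf3 are named only. Padi4, Nr0b2 and Ces2g each held 3 CG dinucleotides in the 250 bases before the start, against a median of 6 over 32841 promoters of that length, and 29% of those promoters held fewer. Chdh has 3 RefSeq starts, and the one nearest its GENCODE M21 start was used. It held 20 in the 250 bases before that start, and 82% of the promoters held fewer. Those bases run past the 103 shown into the Il17rb gene. So at the starts used 3 of the 4 promoters were poor in CG, and the Chdh region, shared with Il17rb, was rich in it. Searching both strands for letters and nothing more, TATAAA stood 31 to 26 bases before the start in Padi4 and 28 to 23 bases before it in Nr0b2, and 12.4% of all promoters hold it. CACGTG was found in Nr0b2 (6.02% of promoters), and AGATAA (9.99%), TGATAA (7.94%) and CCAAT (33.9%) in Ces2g. CACCC was found in Padi4 and Chdh and is held by 52% of promoters, while AGGTCA (14%) and GAGGAAGT (2.44%) were in none of the 4. Some CACCC matches in Padi4 share a base, no matches of different motifs overlapped, and no motif searched was shared by all 4.

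Padi4 (ENSMUSG00000025330, chromosome 4, 140745865 to 140774236, minus strand, mm10) encodes PAD4, which converts arginine in proteins such as histones to citrulline and is best known from neutrophils. It had 0.949, 1.66, 1.05 and 1.42 TPM in the Idh2R172K pools, from 62 to 98 reads, against 51.6, 44.6, 51.0 and 53.2 TPM in the WT pools, from 2814 to 3295 reads. The other groups had 29.9, 43.3, 36.8 and 42.9 TPM in Idh2R140Q, 33.7, 35.6, 35.9 and 40.8 TPM in Idh1R132H and 36.9, 22.3, 45.9 and 37.2 TPM in Tet2-/-. Every Idh2R172K pool was far below every other pool, and the WT pools stood above all Idh2R140Q and Idh1R132H pools. Neither Idh2R140Q nor Idh1R132H was called against WT (limma), and the share of all genes without overlap was not counted. The group mean was 1.27 ± 0.331 TPM in Idh2R172K and 50.1 ± 3.77 TPM in WT (SD, n = 4 each), a 39.4-fold gap and a log2 difference of -4.50 ± 0.17 (SE).

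Nr0b2 (ENSMUSG00000037583, chromosome 4, 133553376 to 133556536, plus strand) encodes SHP, a corepressor of other nuclear receptors, known in liver for restraining bile acid synthesis. The Idh2R172K pools had 0.579, 0.362, 0.290 and 0.296 TPM, which came from 9, 5, 4 and 4 reads. The WT pools had 18.8, 19.3, 18.4 and 15.4 TPM, from 191 to 313 reads. With so few reads in Idh2R172K, the 47.0-fold gap between the means of 0.382 ± 0.136 TPM in Idh2R172K and 18 ± 1.73 TPM in WT (SD, n = 4 each) is known only within a wide counting error. The remaining pools had 13.5, 16.6, 17.6 and 12.7 TPM in Idh2R140Q, 14.8, 17.1, 15.1 and 13.6 TPM in Idh1R132H and 21.8, 20.3, 26.0 and 25.2 TPM in Tet2-/-. Here the Tet2-/- pools, not the WT pools, were the highest, and none of them overlapped with WT. The difference was not called (limma adjusted p = 0.0853), and the share of all genes without overlap was not counted.

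Chdh (ENSMUSG00000015970, chromosome 14, 30009023 to 30040527, plus strand) encodes choline dehydrogenase, the mitochondrial enzyme that begins the oxidation of choline to betaine. It had 0.379, 1.03, 0.693 and 0.803 TPM in Idh2R172K, from 32 to 77 reads, against 25.9, 26.8, 32.6 and 55.2 TPM in WT. The 55.2 TPM of WT replicate 4 was the highest value of any pool. The Tet2-/- pools, at 13.1, 4.24, 11.3 and 8.99 TPM, lay between Idh2R172K and all other groups without touching either. The Idh2R140Q pools had 15.5, 30.3, 32.5 and 34.0 TPM and the Idh1R132H pools 25.9, 29.8, 34.8 and 44.8 TPM. Both groups overlapped with WT, and the lowest Idh2R140Q pool was below every WT pool. The mean was 0.725 ± 0.27 TPM in Idh2R172K and 35.1 ± 13.7 TPM in WT (SD, n = 4 each), a 48.4-fold gap. Chdh shares 589 bases with Cacna1d, a calcium channel gene on the opposite strand, and since the strand setting of the counting is not given in the sources used here, reads in that stretch cannot be told apart. Cacna1d itself was at 0.139 ± 0.085 TPM in Idh2R172K and 0.439 ± 0.1 TPM in WT (SD, n = 4 each).

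Ces2g (ENSMUSG00000031877, chromosome 8, 104961718 to 104969537, plus strand) belongs to the carboxylesterases, which split ester bonds in lipids and drugs. It had 2.73, 4.45, 4.33 and 2.73 TPM in Idh2R172K, from 93 to 155 reads, against 45.6, 48.6, 62.2 and 41.9 TPM in WT, and so kept the largest share of the WT mean among the members, 7.18%. The Tet2-/- pools had 21.6, 11.5, 23.7 and 23.4 TPM, again between Idh2R172K and the rest. The Idh2R140Q pools had 36.6, 39.9, 47.5 and 33.6 TPM and the Idh1R132H pools 57.5, 58.5, 54.9 and 41.9 TPM, and both overlapped with WT. Means were 3.56 ± 0.962 TPM in Idh2R172K and 49.6 ± 8.85 TPM in WT (SD, n = 4 each), a 13.9-fold gap. The transcript is 86.1% identical to Ces2b over 1786 bases and 85.1% to Ces2c over 1763 bases, and Ces2b and Ces2c stayed at or below 0.186 TPM in every pool. These are values after reads were assigned to genes, so they do not show how many reads were exchanged.

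Psma8 (ENSMUSG00000036743, chromosome 18, 14706151 to 14762301, plus strand) encodes an alpha subunit that replaces PSMA7 in proteasomes of the testis. It had 0.172, 0, 0.194 and 1.24 TPM in Idh2R172K, that is 4, 0, 4 and 25 reads, against 15.9, 16.5, 13.6 and 14.2 TPM in WT, from 263 to 400 reads. The count of 0 in Idh2R172K replicate 2 allows up to 0.145 TPM (3 reads, counting error only), and replicate 4 alone supplied 25 of the 33 reads of its group. The Idh2R140Q pools had 7.63, 15.9, 13.7 and 8.71 TPM, the Idh1R132H pools 10.7, 10.4, 13.1 and 9.68 TPM and the Tet2-/- pools 19.9, 11.9, 19.3 and 17.3 TPM. Idh1R132H was below WT with no overlap, though not called (limma), and the other 2 groups overlapped with WT. The share of all genes without overlap was not counted. The means were 0.401 ± 0.564 TPM in Idh2R172K and 15.1 ± 1.36 TPM in WT (SD, n = 4 each), 37.5-fold apart.

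Gdf3 (ENSMUSG00000030117, chromosome 6, 122605403 to 122610087, minus strand) encodes a ligand of the TGF-beta family that acts with Nodal signals in embryos and is made by pluripotent cells. It had 3.12, 0.541, 1.54 and 1.06 TPM in Idh2R172K, from 14 to 91 reads, against 38.5, 16.9, 34.7 and 17.2 TPM in WT. The Idh2R140Q pools had 14.5, 17.0, 29.1 and 8.83 TPM, the Idh1R132H pools 25.2, 14.6, 23.2 and 7.37 TPM and the Tet2-/- pools 25.6, 18.6, 34.8 and 35.5 TPM. Gdf3 had the widest relative spread of the members within Idh2R140Q, Idh1R132H and WT, and the ranges of Idh2R140Q, Idh1R132H and Tet2-/- all overlapped with that of WT. The means of 1.57 ± 1.11 TPM in Idh2R172K and 26.8 ± 11.4 TPM in WT (SD, n = 4 each) were 17.1-fold apart.

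**Figure D1:**
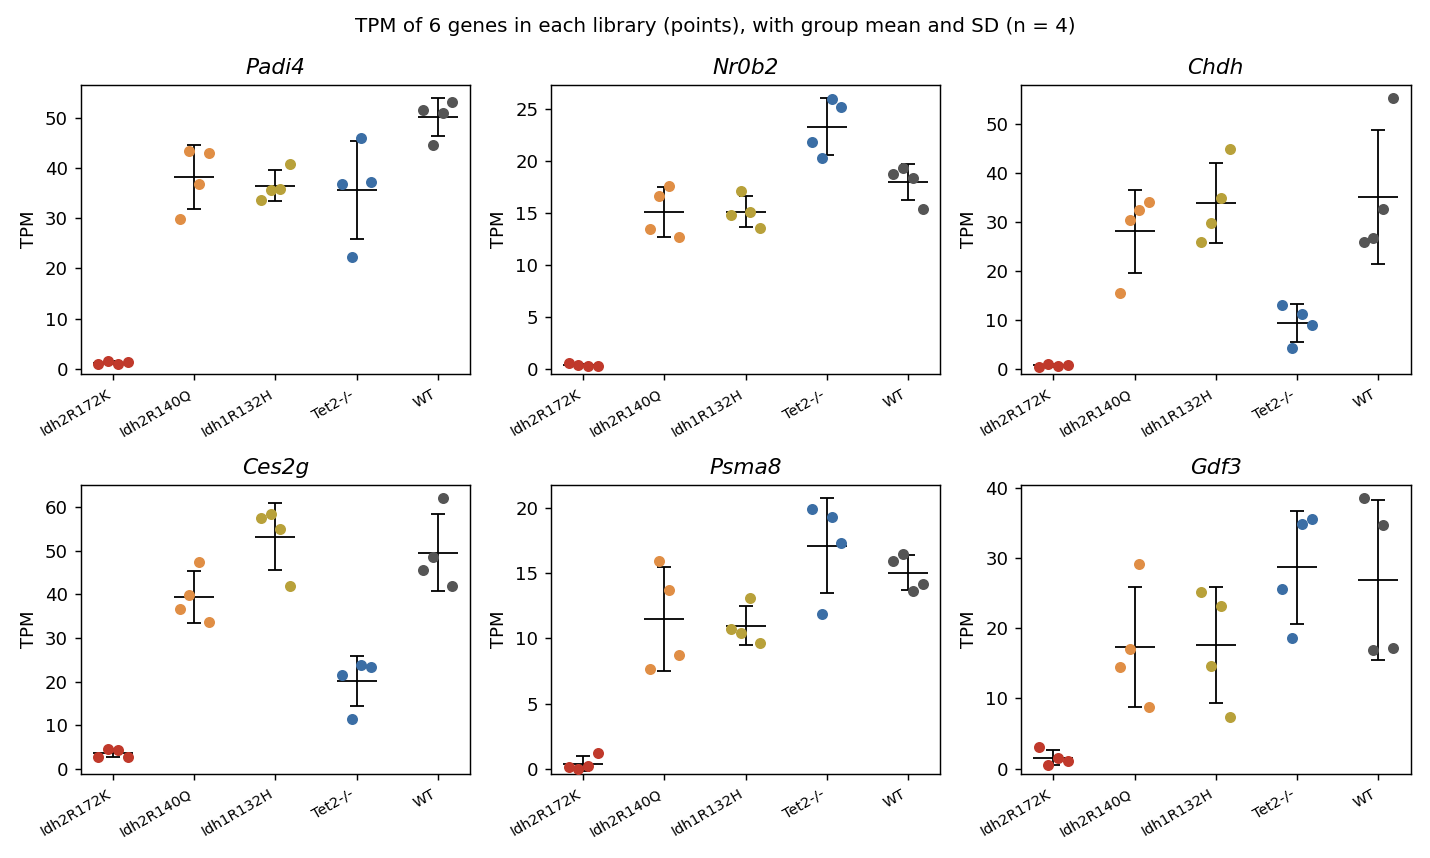
TPM (linear axis, one scale per gene) of the 6 genes in each pool, with the group mean and SD (n = 4) as black bars, for Idh2R172K, Idh2R140Q, Idh1R132H, Tet2-/- and WT from left to right. The Idh2R172K pools lie near 0 for all 6 genes, and the Tet2-/- pools form a separate intermediate level for Chdh (4.24 to 13.1 TPM) and Ces2g (11.5 to 23.7 TPM) alone.

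In all 6 genes the 4 Idh2R172K pools lay below the 16 other pools with no overlap, and the share of all genes that did so was not counted. By a different measure, limma calls, 6.74% of all genes were lower against Idh2R140Q, 7.32% against Idh1R132H and 11.9% against Tet2-/-. Since the choice used the Idh2R172K pools, nothing is read from the lack of overlap in the 6 genes. Set against the Idh2R140Q mean, the other mutation in the same gene, the Idh2R172K mean was 30.1-fold lower for Padi4, 39.6-fold for Nr0b2, 38.7-fold for Chdh, 11.1-fold for Ces2g, 28.6-fold for Psma8 and 11.1-fold for Gdf3. Among the 4 other groups, the gap was narrowest against Tet2-/- for Ces2g (5.63-fold), Chdh (13-fold) and Padi4 (28-fold, against 28.7-fold for Idh1R132H), and it was widest there for Nr0b2 (61.1-fold), Psma8 (42.6-fold) and Gdf3 (18.3-fold). In bulk RNA of a sorted population, fewer cells that express a gene and less of its RNA per cell cannot be told apart.

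The comparisons that leave out Idh2R172K were tested. No member was called in Idh2R140Q or Idh1R132H against WT. Between Idh2R140Q and WT 0 of 6 members were called, where 0% of all genes were called, and between Idh1R132H and WT 0 of 6 were called, where 0.00705% of all genes were (limma, adjusted p under 0.05). At an unadjusted p under 0.05 limma gave 407 genes for Idh2R140Q and 229 for Idh1R132H. Padi4 was the 1 member among them in both, with a difference of -0.39 ± 0.17 in Idh2R140Q (95% interval -0.76 to -0.03, limma adjusted p = 0.998) and of -0.45 ± 0.17 in Idh1R132H (-0.81 to -0.08, limma adjusted p = 1). No pool of either group reached the WT range for Padi4, and the share of all genes without overlap was not counted. The WT pools took part in the choice of the members, so nothing is read from the signs of their differences from WT. The 95% intervals of the 6 differences ran from -1.47 at the lowest to 0.34 at the highest for Idh2R140Q and from -1.47 to 0.63 for Idh1R132H. None reached -3.44, the smallest Idh2R172K difference. The genes were chosen by those Idh2R172K differences, so this is a description and nothing is concluded from it. Between Idh2R140Q and Idh1R132H, 0 of 6 members (0.00705% of all genes) were called, none had an unadjusted p under 0.05 and the intervals ran from -0.94 to 0.85.

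Chdh and Ces2g were lower in Tet2-/- than in WT, and the other 4 members had no call. The 2 of 6 compare with 7.05% of all genes called, 5.02% higher and 2.02% lower. The WT pools took part in the choice of the members, which can favour high WT values. Nothing is therefore read from this count, and the differences from WT are best read beside those from the other mutant groups below. Chdh averaged 9.42 ± 3.85 TPM in Tet2-/- and 35.1 ± 13.7 TPM in WT (SD, n = 4 each), a 3.73-fold gap and a log2 difference of -1.82 ± 0.31 (SE, limma adjusted p = 0.00523). Ces2g averaged 20.1 ± 5.77 TPM in Tet2-/- and 49.6 ± 8.85 TPM in WT (SD, n = 4 each), a difference of -1.30 ± 0.21 (limma adjusted p = 0.00303). All 4 Tet2-/- pools were below all 4 WT pools for both genes, and the share of all genes without overlap was not counted. Both calls ended when the fit was restricted to the Tet2-/- and WT pools (adjusted p = 0.0662 for Chdh and 0.0618 for Ces2g). The split of all calls into higher and lower also moved with scaling: 71.3% of the 999 genes called between Tet2-/- and WT were higher, but 42.9% of 2648 after median-of-ratios scaling and 42.2% of 2492 after quantile scaling.

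The remaining members differed from WT in both directions in Tet2-/-. Padi4 averaged 35.6 ± 9.78 TPM in Tet2-/- and 50.1 ± 3.77 TPM in WT (SD, n = 4 each), a difference of -0.52 ± 0.17 (limma adjusted p = 0.0702), which was called after median-of-ratios scaling (adjusted p = 0.00869), after quantile scaling (0.0139) and without Tet2-/- replicate 3 (0.032). Nr0b2 averaged 23.3 ± 2.72 TPM in Tet2-/- and 18 ± 1.73 TPM in WT (SD, n = 4 each), a difference of 0.36 ± 0.13 (limma adjusted p = 0.0853), which was called with library weights (0.00583) and without the 5 libraries that stood apart (0.028). Calls over all genes also rose, from 999 to 2648 after median-of-ratios scaling and 2492 after quantile scaling. They were 5231 with library weights and 4515 without the 5 libraries. Psma8 differed by 0.15 (95% interval -0.35 to 0.66) and Gdf3 by 0.14 (-0.71 to 1.00), neither called.

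The Tet2-/- pools can also be set against mutant pools that took no part in the choice of the members. Against Idh1R132H, 3 of 6 members were called, where 13.5% of all genes were, 6.82% higher and 6.67% lower. Chdh was lower by 1.81 ± 0.31 (adjusted p = 0.00285) and Ces2g by 1.40 ± 0.21 (adjusted p = 0.00145), and Nr0b2 was higher by 0.59 ± 0.13 (adjusted p = 0.0092, all limma). Of the 1039 genes called lower in Idh2R172K against WT, 13.7% were also called lower and 7.7% called higher in Tet2-/- against Idh1R132H, a comparison that shares no library with the first. Against Idh2R140Q, 3 of 6 members were called, where 9.54% of all genes were, 4.05% higher and 5.49% lower. Of the same 1039 genes, 7.99% were called lower and 5.87% higher there. Chdh differed by -1.51 ± 0.31 (adjusted p = 0.0139), Ces2g by -0.98 ± 0.21 (adjusted p = 0.0152) and Nr0b2 by 0.60 ± 0.13 (adjusted p = 0.015, all limma). In both comparisons the pools of the 2 groups did not overlap for these 3 genes, and the share of all genes without overlap was not counted. The 3 calls against Idh2R140Q ended in the fit of those 2 groups alone (adjusted p = 0.115 for Chdh, 0.121 for Ces2g and 0.131 for Nr0b2); that of Ces2g also ended without Idh2R140Q replicate 3 (0.055) and that of Nr0b2 without Tet2-/- replicate 4 (0.0542). Psma8 was 0.58 above Idh1R132H (interval 0.07 to 1.08, adjusted p = 0.11, limma) and 0.57 above Idh2R140Q (interval 0.06 to 1.07, adjusted p = 0.125), and it was called in both with library weights (adjusted p = 0.00351 and 0.017) and without the libraries that stood apart (0.0192 and 0.0375). Gdf3 was 0.76 above each, with intervals from -0.09 upwards.

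**Figure D2:**
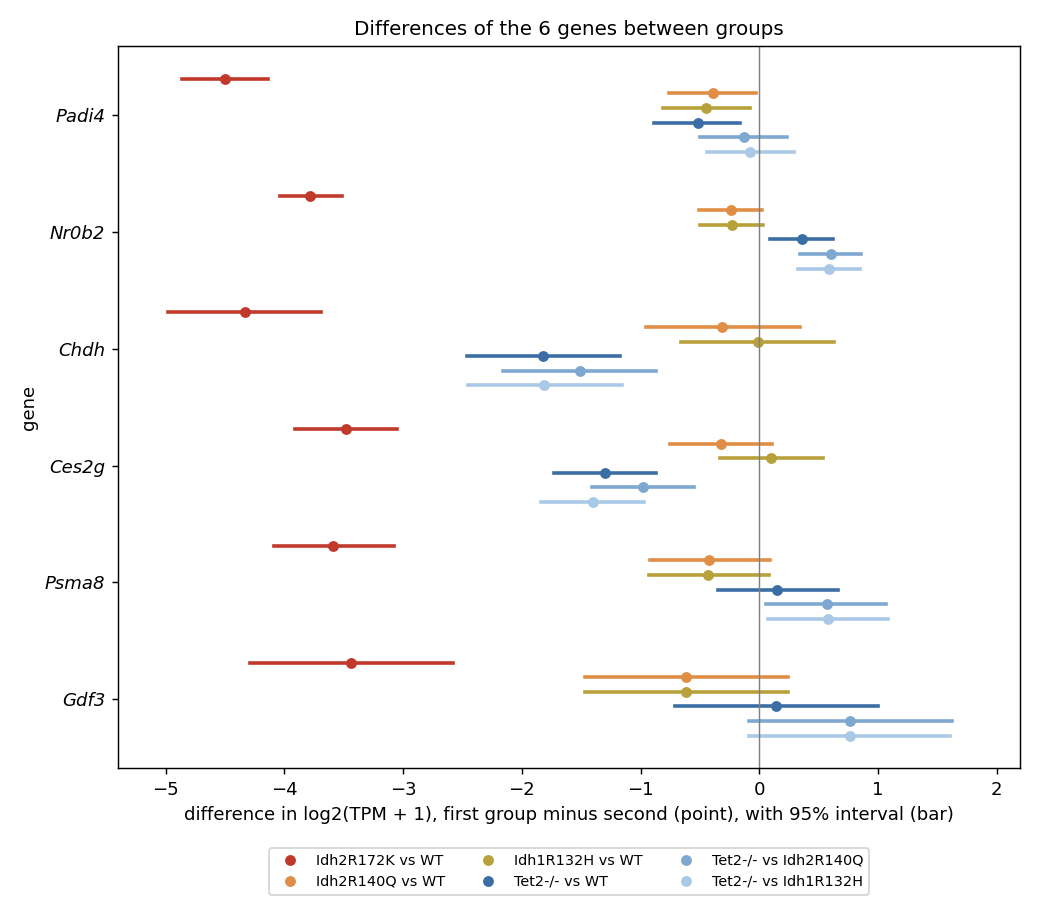
Difference in log2(TPM + 1), first group minus second (points), with 95% intervals (bars), for each gene from Padi4 at the top to Gdf3 at the bottom; colours mark the comparison. The Idh2R172K differences, shown as a description, lie between -4.50 and -3.44, and among the tested comparisons the Tet2-/- differences of Chdh and Ces2g lie farthest below 0.

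The order of the group means therefore differed among the 6 genes. Chdh had WT, Idh1R132H and Idh2R140Q at the top with overlapping pools, then Tet2-/-, then Idh2R172K. Ces2g had the same order except that Idh1R132H stood above WT, with overlap. Nr0b2, Psma8 and Gdf3 had Tet2-/- at the top, then WT, then the other Idh groups, and for Psma8 and Gdf3 each neighbour in that order down to Idh2R172K overlapped with the next. Padi4 had WT at the top, and Idh2R140Q, Idh1R132H and Tet2-/- below it overlapped with one another.

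The genes with the most similar level across the 20 libraries were listed for each member. For Chdh these were Hk3, a hexokinase of myeloid cells (Pearson r = 0.992), Enpp1, Slc14a1, Ermap and Ampd3. For Ces2g they were Sphk1, which makes sphingosine 1-phosphate and is abundant in red cell precursors (r = 0.988), the erythroblast membrane protein Ermap, the Rh proteins Rhag and Rhd, and Prss50. Hk3 averaged 30.5 TPM in Idh2R172K, 81.6 TPM in Tet2-/- and 156 TPM in WT, and Ermap 2.44, 9.78 and 23.4 TPM in the same groups, intermediate in Tet2-/- like Chdh and Ces2g. Listing by r over all 20 libraries, the Tet2-/- pools included, favours genes with such a level. Padi4 was closest to Fbp1 (r = 0.99), Btnl9, Lipo3, Tbxa2r and Casp1. Nr0b2 was closest to Gstt2 (r = 0.99), Lipo3, Calhm6, Afp and Rnase4, Psma8 to Lipo3 (r = 0.979), Afp, Batf2, As3mt and Gstt2, and Gdf3 to Cyp2r1, a vitamin D hydroxylase (r = 0.948), Lipo3, Afp, Rnase4 and Pdlim1. Lipo3, of a lipase family, was thus listed by 4 members and the alpha-fetoprotein gene Afp by 3. Lipo3 had 0.535 TPM in Idh2R172K, 14.8 TPM in Tet2-/- and 15.3 TPM in WT. These correlations describe 20 libraries in which the Idh2R172K pools set most of the spread, and the points share library depth and composition.

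Over the 16 libraries without Idh2R172K, a gene's companions came from the spread among the other groups. Chdh still lay with Hk3 (r = 0.961), after Itgal (r = 0.969) and before Hpse, Utp20 and Il1rl1. Psma8 still lay with Afp (r = 0.828) and Lipo3 (r = 0.818), after Cyp2r1 (r = 0.865) and before Sdsl and Aspa. The other lists held different genes: Eps8 (r = 0.939), Erbb3, Heg1, Il22ra2 and Mfsd10 for Padi4, S100a6 (r = 0.884), Pcbd1, Ifitm1, Dynlt1f and Mrpl17 for Nr0b2, Steap3 (r = 0.969), Atp1b2, Ddost, Slc16a1 and Nop9 for Ces2g, and Selenom (r = 0.838), Rnf125, Mt1, Ecm1 and Fbxl2 for Gdf3. Among the members themselves, the deviations of the 20 libraries from their group means went together most for Padi4 and Chdh (r = 0.811) and for Nr0b2 and Gdf3 (r = 0.658), and the 13 other pairs ranged from -0.19 to 0.515. These too are descriptions over shared libraries.

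Gdf3 varied within groups along with the sex-linked RNA Xist, which is made from the inactive X chromosome of female cells. In each group 2 pools held Xist at 21.7 to 63.4 TPM and 2 held at most 0.148 TPM. In 4 of 5 groups both Gdf3 values of the pools with Xist were above both others: 1.54 and 3.12 TPM against 0.541 and 1.06 TPM in Idh2R172K, 23.2 and 25.2 TPM against 7.37 and 14.6 TPM in Idh1R132H, 34.8 and 35.5 TPM against 18.6 and 25.6 TPM in Tet2-/-, and 34.7 and 38.5 TPM against 16.9 and 17.2 TPM in WT. In Idh2R140Q, 14.5 and 29.1 TPM stood against 8.83 and 17.0 TPM, with overlap. In every group 1 of the 2 pools without Xist was also a library that stood apart in its most abundant transcript (number 4 in WT and the 3 Idh groups, replicate 2 in Tet2-/-), with Gdf3 at 1.06, 8.83, 7.37, 18.6 and 17.2 TPM in Idh2R172K, Idh2R140Q, Idh1R132H, Tet2-/- and WT. The other pool without Xist, at 0.541, 17.0, 14.6, 25.6 and 16.9 TPM in the same order of groups, was below both pools with Xist in all groups but Idh2R140Q. No other member was higher in the pools with Xist in more than 1 group, and Padi4 was lower in them in 2. This pattern was noticed in the data and was not tested; with detection of Xist as a covariate, an alternative added after seeing the data, Gdf3 was called higher in Tet2-/- than in Idh1R132H (limma adjusted p = 0.0466, against 0.21 without it).

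**Figure D3:**
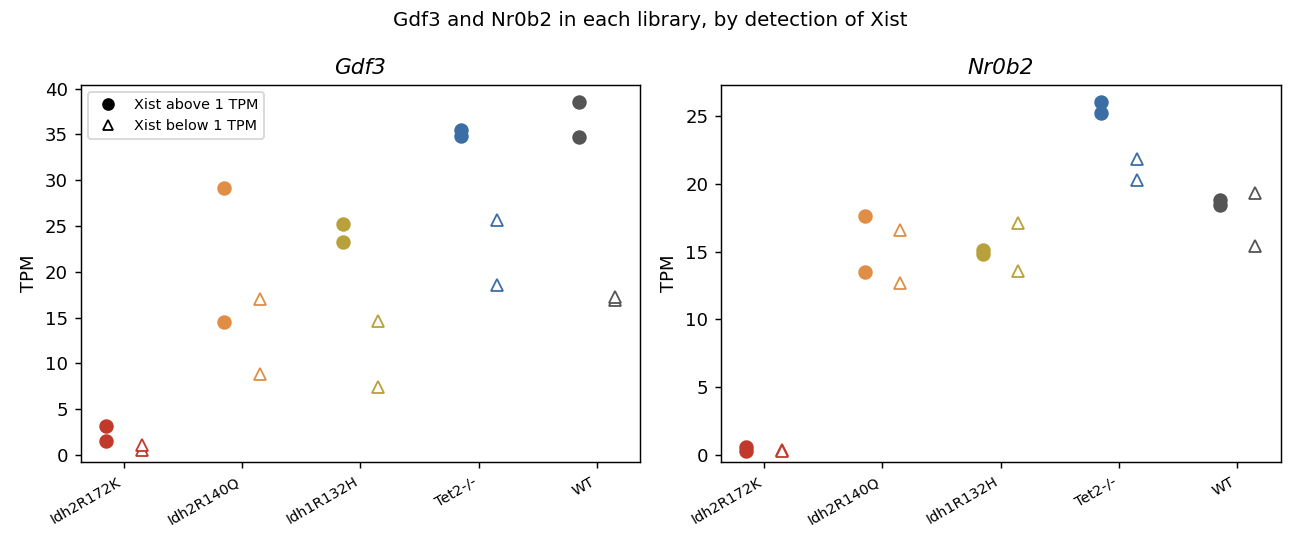
TPM of Gdf3 (left) and, for contrast, Nr0b2 (right) in each pool by group, with filled circles for pools with Xist above 1 TPM and open triangles for pools below it. For Gdf3 the circles lie above the triangles in every group but Idh2R140Q, and for Nr0b2 they do so in Tet2-/- alone.

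The genes around each member were compared to see how local the reduction was. Of 97 genes that start within 250 kb of a member's start, 31 were tested between Idh2R172K and WT, and 3 were called lower and 1 higher, against 15.4% of all genes. The only near loss was that of Il17rb, the receptor gene for interleukin 25, which begins 127 bases from Chdh on the opposite strand (chromosome 14, 29996135 to 30008896, minus strand, GENCODE M21). Il17rb had 0.374, 0.632, 0.451 and 0.461 TPM in Idh2R172K and 4.24, 6.16, 5.48 and 11.4 TPM in WT, with no overlap. The difference was -2.33 ± 0.28 (SE, limma adjusted p = 9.76e-06), and it was also called after median-of-ratios and quantile scaling. The other neighbours tested beside Chdh, Actr8 (75.6 TPM in Idh2R172K against 74.1 TPM in WT, adjusted p = 0.904) and Selenok (201 against 189 TPM, adjusted p = 0.5), had no call (limma).

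**Figure D4:**
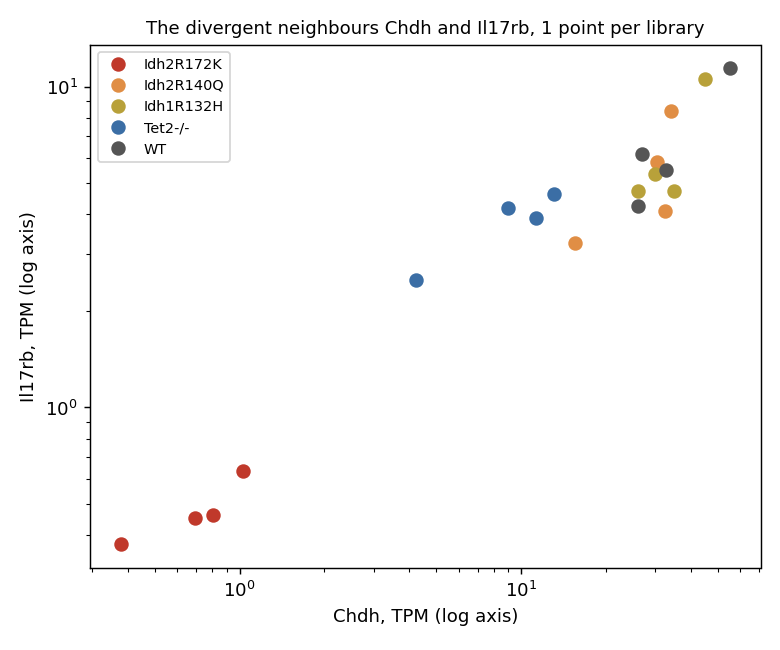
TPM of Chdh (horizontal, log axis) and Il17rb (vertical, log axis), 1 point per pool, coloured by group. The Idh2R172K pools lie apart at the lower left (Il17rb 0.374 to 0.632 TPM), the Tet2-/- pools have 2.49 to 4.63 TPM of Il17rb, and the pool with the most of both is WT replicate 4 (55.2 and 11.4 TPM).

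In Tet2-/-, where Chdh was called lower, Il17rb averaged 3.80 TPM against 6.82 TPM in WT (log2 difference -0.65 ± 0.28, limma adjusted p = 0.153), and it passed the threshold after median-of-ratios scaling (adjusted p = 0.0447) and after quantile scaling (0.0125). Padi2, 132108 bases from Padi4, is described with its family. Nudc, which begins 7380 bases from Nr0b2 and encodes a dynein-associated protein, was lower in Idh2R172K, with 353 TPM against 421 TPM in WT (-0.25 ± 0.08, limma adjusted p = 0.0477), a call that ended after quantile scaling (adjusted p = 0.0953) and in the fit of the 2 groups alone (0.0557). The small RNA gene Gm24924 near Psma8 was higher in Idh2R172K, with 6.80 TPM against 3.23 TPM in WT (0.97 ± 0.30, limma adjusted p = 0.0361), but not after median-of-ratios scaling (adjusted p = 0.0923), after quantile scaling (0.16) or in the fit of the 2 groups alone (0.0509). It lies inside Ss18 on the same strand, which had 136 TPM against 105 TPM (adjusted p = 0.231, limma), so reads could be split between them. The nearest tested genes on either side of Psma8 and Gdf3, Ss18, Taf4b (10.2 TPM in Idh2R172K against 9.48 TPM in WT), Apobec1 (24.3 against 25.5 TPM) and Gm10224 (2.16 against 2.88 TPM), and Cbfb near Ces2g (166 against 164 TPM), were not called between Idh2R172K and WT (limma).

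The relatives of each member were taken from gene lists, and the members themselves were left out of every count. The median difference of all genes tested was 0.11 between Idh2R172K and WT and 0.02 between Tet2-/- and WT. Called higher and lower were 8.03% and 7.33% of all genes in Idh2R172K against WT, and 5.02% and 2.02% in Tet2-/- against WT (limma). The counts of each list and marker list below stand beside these shares, and no list was tested as a set. Of the 4 other peptidylarginine deiminases, only Padi2 was tested. It was called lower in Idh2R172K, with 27.5 ± 2.68 TPM against 38.3 ± 3.4 TPM in WT (SD, n = 4 each; -0.47 ± 0.11 SE, limma adjusted p = 0.00578), and kept most of its RNA, whereas Padi4 kept 2.54%. Padi1, Padi3 and Padi6 averaged at most 0.44 TPM in any group. Of the 21 other genes on the carboxylesterase list only Esd, an esterase gene that is not a Ces gene, was tested. It was not called in Idh2R172K (-0.00, adjusted p = 0.993, limma) or in Tet2-/- (-0.04, adjusted p = 0.771). No other Ces gene averaged enough to be tested, so Esd does not speak for them. Ces2g was thus the one carboxylesterase of family 2 with RNA above 1 TPM in these cells.

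Among 34 other genes of choline, betaine and one-carbon metabolism, 25 were tested between Idh2R172K and WT, and 0 were higher and 1 was lower, with a median of -0.06. The lower count was 4 after median-of-ratios scaling, 4 (with 1 higher) in the fit of the 2 groups alone and 3 (with 2 higher) without the libraries that stood apart. The gene called was Ahcy, which removes S-adenosylhomocysteine, at 47.0 ± 3.71 TPM in Idh2R172K against 60.4 ± 1.4 TPM in WT (SD, n = 4 each; limma adjusted p = 0.0171). Aldh7a1, which completes betaine synthesis after CHDH, had 24.0 ± 1.12 TPM in Idh2R172K and 23.8 ± 1.42 TPM in WT, and Bhmt, which uses betaine, was at 0 in every pool. In Tet2-/- against Idh1R132H, 7 of the 25 were lower and 0 higher, but 0 were called in the fit of those 2 groups alone, and 3 were lower and 5 higher without the 5 libraries that stood apart. Against WT 1 was lower and 0 higher, with 0 called in the fit of the 2 groups alone and 3 lower and 4 higher without those libraries.

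Proteasome genes showed small shifts next to the near loss of Psma8. Of 38 tested, 0 were higher and 8 were lower in Idh2R172K than in WT, with a median of -0.15 (-0.24 after median-of-ratios scaling, with 7 lower). The count was 5 in the fit of the 2 groups alone, 14 without the 5 libraries that stood apart and 15 with the replicate block. The 4 with the smallest p were Psmb8, an immunoproteasome subunit (284 ± 26.3 TPM in Idh2R172K against 393 ± 31.2 TPM in WT, SD, n = 4 each; -0.47 ± 0.09 SE, limma adjusted p = 0.0017), Psmd6, Psme2 and Psmc5. Psma7, the somatic counterpart of Psma8, had 244 ± 3.12 TPM in Idh2R172K and 291 ± 7.39 TPM in WT (-0.25 ± 0.07, limma adjusted p = 0.0253), and was not called after median-of-ratios scaling (0.124). Psma7 is 73.9% identical to Psma8 over 671 bases. In Tet2-/- against WT 0 of the 38 were called, and after median-of-ratios scaling 4 were lower.

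Nuclear receptors and targets linked to SHP moved in both directions. Of 17 tested, 3 were higher and 2 lower in Idh2R172K than in WT, with a median of 0.21. Hnf4a, a receptor best known from liver that SHP represses, had 4.75 ± 1.29 TPM in Idh2R172K and 26.7 ± 3.68 TPM in WT (SD, n = 4 each; -2.28 ± 0.26 SE, limma adjusted p = 4.54e-06), and the oestrogen receptor Esr1 had 3.50 ± 1.2 TPM and 14.4 ± 1.14 TPM in the same groups (-1.81 ± 0.23, adjusted p = 2.06e-05). The thyroid hormone receptor Thra and the retinoic acid receptors Rarg and Rara were the 3 that rose. The bile acid receptor Nr1h4 and the liver receptor homologue Nr5a2, known activators of Nr0b2 in liver, averaged at most 0.0476 TPM in any group. In Tet2-/- against WT, 2 of the 17 were higher and 1 lower, and 0 were called in the fit of the 2 groups alone. Without the libraries that stood apart, 5 were higher and 2 lower in Idh2R172K against WT.

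Gdf3 acts through the Nodal and activin branch of TGF-beta signalling. The list for that branch also held BMP genes, TGF-beta receptors and shared signal carriers, among them Bmpr2, Id1, Tgfbr2 and Smad4. Of its 19 other genes tested, 6 were higher and 1 lower in Idh2R172K than in WT, with a median of 0.41. The counts are therefore not those of the Nodal and activin branch alone. Acvr1b, an activin and Nodal receptor, had 17.1 ± 4.4 TPM in Idh2R172K and 9.25 ± 2.18 TPM in WT (SD, n = 4 each; 0.82 ± 0.18 SE, limma adjusted p = 0.00357), and Bmpr2, Acvr2b, Id1, Smad4 and Tgfbr2 also rose. The gene that was lower was Lefty1, an inhibitor of Nodal, with 1.31 ± 0.289 TPM against 4.43 ± 0.954 TPM in WT (-1.22 ± 0.14, limma adjusted p = 7.46e-06). Nodal itself averaged at most 0.0274 TPM in any group. Without the libraries that stood apart, 9 were higher and 2 lower. In Tet2-/- against WT, 1 of the 19 was higher and 0 lower, with 0 called in the fit of the 2 groups alone, 3 higher and 3 lower after median-of-ratios scaling and 4 higher and 1 lower without the libraries that stood apart.

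Psma8 and Gdf3 are known from germ cells and pluripotent cells, and the list of such genes was nearly silent in all groups. Of 22 other genes, 2 were tested, and Ddx4, a germ cell RNA helicase, was the 1 called, lower in Idh2R172K with 1.99 ± 0.833 TPM against 10.7 ± 1.88 TPM in WT (SD, n = 4 each; -2.0 ± 0.23 SE, limma adjusted p = 5.22e-06). Ddx4 averaged 6.76 ± 2.41 TPM in Tet2-/-, where it was not called against WT (adjusted p = 0.0968) and was called after median-of-ratios scaling (0.0484) and quantile scaling (0.0352). Dppa3 and Nanog, pluripotency genes near Gdf3 on chromosome 6, averaged at most 0.0256 and 0.0623 TPM in any group.

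Markers of other blood cell types moved with the groups. Of 13 red cell progenitor markers tested, 0 were higher and 10 lower in Idh2R172K than in WT (median -1.78), and 0 higher and 8 lower in Tet2-/- than in WT (median -0.71; 2 lower in the fit of those 2 groups alone). The summed TPM of the list was 702 to 854 in Idh2R172K, 1398 to 1973 in Tet2-/- and 1911 to 2182 in WT, and no marker was at 0 throughout a group. Klf1, a master regulator of red cell genes, had 7.74 ± 1.02 TPM in Idh2R172K, 28.3 ± 2.39 TPM in Tet2-/- and 55.7 ± 6.28 TPM in WT (SD, n = 4 each), and Gata1 had 9.45 ± 1.41, 29.5 ± 3.8 and 49.0 ± 5.25 TPM. The Tet2-/- level of both lay between the others, as that of Chdh and Ces2g did, and the part of such cells in the values of Chdh and Ces2g was not tested. The red cell list held Sphk1, Ermap and Rhd, all called lower in Idh2R172K and in Tet2-/-, and the next list held Hk3, also lower in each. These genes were named above for their high r with Ces2g or Chdh, so their likeness to those members was partly fixed beforehand. Of 14 granulocyte and monocyte progenitor markers, 7 were lower and 0 higher in Idh2R172K (summed TPM 4736 to 6198 against 6804 to 9885 in WT), and 2 were lower and 0 higher in Tet2-/- (0 lower in the fit of the 2 groups alone, and 1 lower and 2 higher without the libraries that stood apart). None of 10 tested markers of mature neutrophils, the cells best known for PAD4, was called in Idh2R172K or in Tet2-/- (limma), and their summed TPM was 34.3 to 97.8 in Idh2R172K, 46.2 to 137 in Tet2-/- and 40.5 to 111 in WT.

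The other marker lists are given for Idh2R172K against WT and then for Tet2-/- against WT. LSK and stem cell markers, with summed TPM of 2940 to 3105 in Idh2R172K and 2290 to 2644 in WT, were present in every group, with 2 higher and 2 lower of 15, then 1 and 0. Without the libraries that stood apart these were 6 and 2, then 8 and 0, and in the fits of 2 groups alone 6 and 1, then 1 and 0. Lymphoid progenitor markers had 1 higher and 5 lower of 10, then 0 and 0, megakaryocyte markers 2 and 3 of 10, then 0 and 1, and basophil, mast cell and eosinophil markers 1 and 6 of 12, then 1 and 0. Macrophage and monocyte markers had 0 higher and 2 lower of 11, then 2 and 0. In the fit of Tet2-/- and WT alone, 0 megakaryocyte, 0 basophil, mast cell and eosinophil and 0 macrophage markers were called, while 4 megakaryocyte markers were lower after either scaling. B lineage markers had 2 and 1 of 5, then 0 and 0, T and NK markers 0 and 3 of 4, then 0 and 0, and stroma and endothelium markers 1 and 0 of 2, then 0 and 0. The number 4 libraries of WT and the 3 Idh groups and Tet2-/- replicate 2 stood apart in the share of TPM taken by the most abundant transcript, Gm23935, which ran from 7.55 to 20.0% over all libraries. Without these 5 libraries 3 members were called in Tet2-/- against WT, 4 against Idh1R132H and 4 against Idh2R140Q. Calls over all 14176 genes rose as well, to 4515, 4633 and 3382 in the same order, from 999, 1913 and 1352.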

How the data were processed

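RNA from sorted LSK cells gave 20 libraries, 4 per group. Per the submitters' processing notes, reads were trimmed with Trim Galore, aligned to mm10 with STAR and counted with featureCounts. Versions, annotation and strand setting are not given in the sources used here. The deposited values are TPM, computed by the authors, and each library sums to 1000000. A column was assigned to the sample with its mutation and number, including those whose prefix names Idh1 but whose mutation is that of Idh2R140Q. Names and coordinates came from GENCODE M21 (45229 of 46078 IDs matched).

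Depth was read from the steps between low TPM values, of which 90.1 to 91.1% per library were whole reads within 0.1 reads. It was 35.2 to 45.0 M assigned reads per library (median 39.2 M; M is 1000000). Read numbers per gene rest on the length that gave whole reads.

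The test was limma 3.58.1 (R 4.3.3; lmFit, eBayes with trend) on log2(TPM + 1), in 1 fit of 5 groups. It covered 14176 genes averaging 1 TPM or more, adjusted by Benjamini-Hochberg, two-sided, and called at 0.05. It was tested on simulated data. The members, the gene lists and the marker lists were chosen with earlier results of these data known. Genes were named by rule: members, list genes by smallest p, nearest or called neighbours, and the 5 genes with the highest r per member.

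Same-numbered libraries deviated together in Idh1R132H and WT (r = 0.176 to 0.489) and in Idh2R140Q and Idh1R132H (r = 0.147 to 0.538), so these were taken as paired. The differences, intervals and p-values given above come from the fit without this pairing. With the replicate number as a block, 0 members were called in either comparison, as without it, and 2 genes in place of 1 between Idh1R132H and WT. In these groups numbers 1 and 3 carried Xist, and number 4 had the lowest share of Gm23935. What lies behind the shared deviations was not tested. Alternatives changed the pseudocount, the filter, the scaling, the libraries and the model. Figures were drawn with matplotlib 3.10.9.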

Additional observations from a re-analysis of the deposited data

Results flagged for a closer look

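Psma8 in Idh2R172K replicate 4 had 1.24 TPM (25 reads), where the other 3 pools of its group had 0 to 0.194 TPM. Its gap to the nearest pool was 0.843 of the group's range, above the limit of Dixon's test for 4 samples at 95% confidence. It was the 1 such value among 30 groups of 4 (6 genes in 5 groups), and chance alone flags about 1 in 20 groups. Even this pool lay below the lowest of the other groups, 7.63 TPM in Idh2R140Q.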

How the results depend on the processing

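The number of members called between Tet2-/- and WT was 2 (999 of all genes). Padi4 (limma adjusted p = 0.0457 and 0.0197) and Nr0b2 (0.0497 and 0.0431) were added with the replicate block and with limma-voom on rebuilt reads. The number was then 4 with the block (2485 of all genes) and 4 with limma-voom (2556 of all genes). It was 0 in the fit of those 2 groups alone, as was the number between Tet2-/- and Idh2R140Q, 3 with all groups; the cause was not tested, though such a fit has fewer samples. The Tet2-/- numbers pair no samples here (same-numbered r from -0.0809 to 0.0793 against WT), nor do those of Idh2R140Q against WT (0.0974 to 0.451), and the block changed no other call of a member. Leaving out single replicates gave 2 to 3 members against WT, 2 to 3 against Idh2R140Q, 3 to 3 against Idh1R132H and 0 to 0 elsewhere. No called member difference changed sign under the settings run. The Idh2R172K differences against WT grew with a pseudocount of 0.1 (-3.78 for Ces2g to -5.55 for Psma8) and with limma-voom (-3.88 for Ces2g to -6.49 for Psma8).

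Counts over all genes moved more. Between Tet2-/- and WT 999 genes were called, and 45 in the fit of 2 groups, 517 with a mean of at least 5 TPM, 5231 with library weights, 4515 without the libraries that stood apart, 2485 with the replicate block, 2556 with limma-voom, and 266 (without WT replicate 3) to 1391 without single replicates. Against Idh1R132H 1913 were called, with 548 in the fit of 2 groups, 6133 with library weights, 4633 without the libraries that stood apart, 3550 with the block, 3634 with limma-voom and 672 (without Idh1R132H replicate 3) to 2467 without single replicates. Against Idh2R140Q 1352 were called, with 4, 3342, 3382, 2993, 2824 and, without single replicates, 177 (Tet2-/- replicate 4) to 2231 in the same order, and 668 with no filter. Other single libraries that lowered a count by over 1.5 times were WT replicate 1 (504) and Tet2-/- replicate 4 (351) against WT, Idh1R132H replicates 1 (1077), 2 (1071) and 4 (1254) and Tet2-/- replicate 4 (942) against Idh1R132H, and Idh2R140Q replicates 2 (431), 3 (189) and 4 (413) and Tet2-/- replicate 2 (790) against Idh2R140Q. Scaling raised these to 3479 and 3459 against Idh1R132H and to 2759 and 2992 against Idh2R140Q. Idh2R172K against WT had 2177, with 1371 (mean of at least 5 TPM) to 4641 (without the libraries that stood apart). Depth limits Nr0b2 and Psma8 in Idh2R172K, at 0 to 25 reads per library.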
